A study of Homo sapiens with 18 samples.

Results

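The genes of the epithelial cell junctions were examined in mRNA sequencing of head and neck squamous cell carcinoma (HNSCC) cells stimulated with hepatocyte growth factor (HGF). The group was chosen by name: 33 of the 19901 genes in the count table that code for adherens junction proteins (5 genes), desmosomal cadherins (5), desmosomal plaque and accessory proteins (8), claudins (5), other tight junction proteins (7), and the epithelial genes EPCAM, ESRP1 and ESRP2 (3). The rule uses names only and no measured value, but the list was drawn up with earlier results of these data known. No test over the list was run, and its counts stand beside the shares over all genes as description only. The study compared HGF-stimulated with untreated cells in 3 established HNSCC cell lines to learn which genes respond to the ligand of the Met receptor. Its 6 groups hold 3 libraries each, 18 in all, numbered 1 to 3 within every group. Detroit 562, a line from a metastatic site of a pharyngeal tumor, and FaDu, from a hypopharyngeal primary tumor, were grown in MEM-α. SCC-9, from a primary tumor of the tongue, was grown in DMEM F12 with 400 ng/mL hydrocortisone, so line and medium cannot be told apart. The treated wells received 50 ng/mL HGF and the control wells none. The sample records and the methods give a stimulation of 16 h, whereas the series record gives 48 h. Each tumor type is represented by 1 line. The methods state that the experiment was repeated, but the labels do not tie the libraries to the repeats, and the p-values measure the spread between these libraries.

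Epithelial cells are held together by 3 kinds of junction. In adherens junctions, classical cadherins bind between cells and are tied to actin by catenins. In desmosomes, desmogleins and desmocollins bind between cells and are tied to keratin filaments through plakoglobin, plakophilins and desmoplakin. Tight junctions seal the space between cells: claudins form the strands, occludin and its relatives sit beside them, and the ZO proteins and cingulin form the cytoplasmic plaque. In squamous epithelium desmosomes are abundant, and HGF, also called scatter factor, is known for making epithelial colonies disperse.

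Each library held between 35304770 and 44003970 counts (median 40138919), and all 33 junction genes were among the 15475 genes that passed the filter on low counts. Levels are given as CPM, counts scaled by the effective library size, and, where genes are compared with each other, as RPKM, CPM per kilobase of exon. A gene was called when the adjusted p of edgeR's quasi-likelihood test was below 0.1 and the log2 fold change at least 0.4 in size. The HGF target DUSP6, a phosphatase that dampens ERK signaling, rose with HGF in Detroit 562 (log2 fold change 1.53) and FaDu (1.44) and was not called in SCC-9 (0.47), except with the library number as a block (0.48, adjusted p = 0.00766). Of the 5 squamous markers, KRT5, KRT14, KRT17, KRT6A and TP63, none was at 0 in any group, but KRT14 averaged only 1.23 CPM in untreated Detroit 562. Of the 7 fibroblast markers, COL3A1, LUM, PDGFRB and THY1 had at most 10 counts in every library, and so had PTPRC and CD3E of the 5 leukocyte and endothelial markers. The others, COL1A1, COL1A2 and DCN, and CD68, PECAM1 and CDH5, exceeded 10 counts in some libraries. The summed levels of these lists are given below for each line. In bulk RNA fewer cells of a type and less RNA per cell cannot be told apart.

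The junction genes differed widely in level among themselves. In untreated Detroit 562 the highest per length was EPCAM, a cell surface adhesion protein of simple epithelia, at 175 ± 3.66 RPKM (SD, n = 3). PERP, a desmosome-associated membrane protein, followed at 86.5 ± 4.28 RPKM, and JUP, plakoglobin, which serves both desmosomes and adherens junctions, at 80.1 ± 4.68 RPKM, 2 neighbours whose ranges of mean ± SD overlapped. In FaDu and SCC-9 the order was led by PERP, at 170 ± 16.4 and 174 ± 23.9 RPKM, before JUP at 88.3 ± 7.49 and 148 ± 19.2 RPKM. In SCC-9 PERP and JUP lay within their spread of each other, while in FaDu they did not. The desmoglein DSG1 was at the bottom of the order in each line. Its control libraries held 0, 0 and 2 counts for SCC-9, 18, 19 and 20 for FaDu, and 9, 14 and 11 for Detroit 562, and no fold is given for it. With HGF they held 3, 0 and 0, then 9, 12 and 12, and then 3, 12 and 10 counts, and DSG1 was called in no line.

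**Figure D1:**
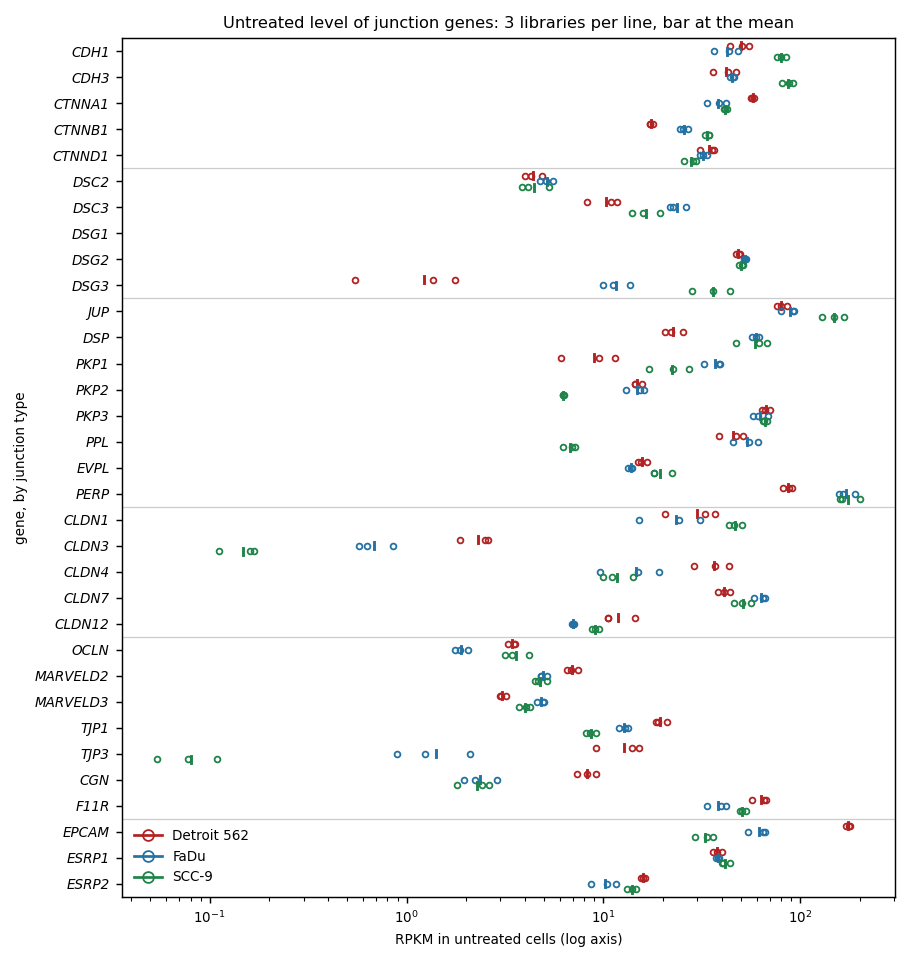
Untreated level of the junction genes in RPKM (log axis). Each circle is 1 library of Detroit 562, FaDu or SCC-9, the short bar is the mean of the 3, and grey lines part the junction types. DSG1, with at most 20 counts in a library, is not drawn. TJP3 spans the widest range, from 12.7 RPKM in Detroit 562 to 0.0805 RPKM in SCC-9.

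Many junction genes differed in level between the untreated lines, as did many of all genes tested. Detroit 562 had 12 of the 33 genes called higher and 8 called lower than FaDu, where 31.2% and 29.8% of all genes tested were called in those directions. Against SCC-9 it had 11 higher (31.4% of all genes) and 10 lower (33.9%). FaDu had 9 higher (30.7%) and 10 lower (33.5%) than SCC-9, and DSG1 is one of the higher genes in both comparisons with SCC-9. These shares of the junction genes were near those of all genes, and the 3 comparisons share their libraries.

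Several tight junction genes were highest in Detroit 562. TJP3, coding for the plaque protein ZO-3, measured 60.0, 55.1 and 36.2 CPM in untreated Detroit 562, 8.29, 4.92 and 3.54 CPM in FaDu and 0.215, 0.309 and 0.433 CPM in SCC-9. No libraries of different lines overlapped, and the log2 differences were 3.17 (Detroit 562 over FaDu, adjusted p = 2.64e-07), 7.30 (Detroit 562 over SCC-9, adjusted p = 3.24e-10) and 4.12 (FaDu over SCC-9, adjusted p = 6.48e-07). The strand-forming claudin CLDN3 followed the same order, with 3.18, 3.31 and 2.37 CPM in Detroit 562, 1.09, 0.728 and 0.798 CPM in FaDu and 0.215, 0.143 and 0.204 CPM in SCC-9. Its neighbour on chromosome 7, CLDN4, was higher in Detroit 562 than in FaDu by 1.32 and than in SCC-9 by 1.64 on the log2 scale, with FaDu and SCC-9 not called different (0.32, adjusted p = 0.245). Without control library 3 of FaDu, that last difference was 0.55 and was called (adjusted p = 0.0428). Cingulin (CGN) was likewise higher in Detroit 562 alone, by 1.81 and 1.86 on the log2 scale. The ZO-1 gene TJP1 had the same order as TJP3 with smaller log2 differences (0.61, 1.17 and 0.56), all called.

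The other tight junction genes had different orders. CLDN1, the main claudin of stratified epithelium, was lower in Detroit 562 (-0.63, adjusted p = 0.0465) and FaDu (-0.99, adjusted p = 0.0041) than in SCC-9. The first of these calls was lost without control library 3 of Detroit 562 (-0.42, adjusted p = 0.194) or control library 3 of SCC-9 (-0.57, adjusted p = 0.112). Against FaDu, CLDN1 in Detroit 562 was not called (0.35), but was without control library 3 of Detroit 562 (0.57) or control library 1 of FaDu (0.61). CLDN7 was lower in Detroit 562 than in FaDu by 0.62 on the log2 scale. Its extent, and that of F11R below, overlap another gene on the same strand, so both counts are uncertain. CLDN12 was higher in Detroit 562 than in FaDu by 0.76, and its counts are uncertain too, since it overlaps CDK14 and GTPBP10 on its strand, which were higher there by 2.54 and 0.57. Occludin (OCLN) was lowest in FaDu, 0.86 below Detroit 562 (adjusted p = 3.07e-07) and 0.92 below SCC-9 (adjusted p = 1.21e-07). Tricellulin (MARVELD2), the occludin relative at corners where 3 cells meet, was higher in Detroit 562 than in FaDu (0.50) and SCC-9 (0.54). Another relative, MARVELD3, was lower in Detroit 562 than in FaDu by 0.66. Against SCC-9, MARVELD3 (-0.39) and CLDN12 (0.38) stayed just under the minimum, and single libraries decided this (-0.42 and -0.43 without control library 1 of Detroit 562 or 2 of SCC-9 for MARVELD3, and 0.46, 0.46 and 0.42 without control library 1 or 2 of Detroit 562 or 1 of SCC-9 for CLDN12). In FaDu against SCC-9, CLDN12 was not called either (-0.38), and was without control library 2 of SCC-9 (-0.40). F11R, coding for the junctional adhesion molecule JAM-A, was higher in Detroit 562 than in FaDu by 0.72 and lower in FaDu than in SCC-9 by 0.41. That last call was lost without control library 3 of FaDu (-0.32) or of SCC-9 (-0.38).

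Desmosomal genes ran the other way for several members. DSG3, the desmoglein of the basal layers of stratified epithelium, measured 9.78, 7.58 and 3.07 CPM in untreated Detroit 562, 62.7, 75.8 and 55.7 CPM in FaDu and 156, 200 and 245 CPM in SCC-9. The lines did not overlap, and the log2 differences were -3.24, -4.87 and -1.63 for Detroit 562 against FaDu, Detroit 562 against SCC-9 and FaDu against SCC-9. PKP1, the plakophilin of suprabasal squamous cells, was 2.02 and 1.30 lower in Detroit 562 than in FaDu and SCC-9 on the log2 scale. Desmoplakin (DSP), the link to keratins, was lower by 1.39 and 1.37, PERP by 0.97 and 1.01, and the desmocollin DSC3 by 1.20 and 0.67. PPL, coding for periplakin, a plakin of the cornified envelope and desmosome, stood apart: SCC-9 held 47.8, 53.3 and 55.2 CPM against 297 to 393 CPM in Detroit 562 and 350 to 470 CPM in FaDu (2.75 and 2.99 on the log2 scale). Its partner envoplakin (EVPL) was lower in FaDu than in SCC-9 by 0.50, a call lost without control library 2 of SCC-9 (-0.39). JUP was lower in Detroit 562 and FaDu than in SCC-9, by 0.89 and 0.75. The more widely expressed plakophilin PKP2 was also lower in SCC-9, by 1.25 and 1.24. DSC2, DSG2 and PKP3 were called in none of these 3 comparisons.

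Of the adherens junction genes, E-cadherin (CDH1) was higher in SCC-9 than in Detroit 562 by a log2 difference of 0.69 and than in FaDu by 0.91. P-cadherin (CDH3), its neighbour on chromosome 16, was higher in SCC-9 by 1.04 and 0.94. β-catenin (CTNNB1) was lowest in Detroit 562, at 202 to 210 CPM against 288 to 315 CPM in FaDu and 385 to 403 CPM in SCC-9. The difference between FaDu and SCC-9 (-0.40) was at the minimum and under it in 8 of the 18 fits that left out a library (-0.37 to -0.40). α-catenin (CTNNA1) was highest in Detroit 562, by 0.59 over FaDu and 0.46 over SCC-9. p120-catenin (CTNND1), which stabilizes cadherins at the membrane, was called in none of the 3. EPCAM was highest in Detroit 562, by 1.51 over FaDu and 2.41 over SCC-9 on the log2 scale. The epithelial splicing regulator ESRP1 was called in none, and its paralog ESRP2 was lower in FaDu than in Detroit 562 by 0.64 and than in SCC-9 by 0.45, the latter not called without control library 2 of FaDu (-0.34).

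In Detroit 562, HGF stimulation was followed by lower expression of junction genes of every structural type. 12 of the 33 genes were called lower, where 11.7% of all genes tested were, and 1 was called higher, where 6.16% of all genes were. DESeq2 called 13 genes as well (18.1% of all genes without and 17.9% with a fold change prior). With the replicate number as a block, which takes out what same-numbered libraries share, 13 were lower (14.4%) and 1 was higher (7.13%). The median log2 fold change of the 33 was -0.29, beside -0.01 over all genes tested. The log2 fold change was negative for 28 of the 33, as it was for 25 in FaDu and 28 in SCC-9, so this count is not particular to Detroit 562. The share of negative values over all genes tested is not given, so the count is description only. It includes genes too low to compare between treatments: DSG1 in Detroit 562 and FaDu, and CLDN3 and TJP3 in SCC-9. Groups did not overlap for 20 genes that were lower with HGF (20.1% of all genes tested) and for 3 that were higher (18.1%). In 25 genes all 3 HGF libraries were below the control library of the same number (32.3% of all genes tested), and in 5 all 3 were above it (30.6%). By type, 2 of 5 desmosomal cadherins, 4 of 8 plaque genes, 3 of 5 claudins, 2 of 7 other tight junction genes and 1 of 5 adherens genes were called lower, and none of EPCAM, ESRP1 and ESRP2 was called. In the same libraries the summed level of the fibroblast markers was 29.8 to 54.4 CPM in control and 15.0 to 27.6 CPM with HGF, of which COL1A1 and COL1A2 were called lower. That of the leukocyte and endothelial markers was 20.8 to 40.7 and 37.9 to 56.3 CPM, with CD68 called higher, and that of the squamous markers 2344 to 3692 and 1319 to 2626 CPM, with KRT5 called lower. The part of these in the result was not tested.

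**Figure D2:**
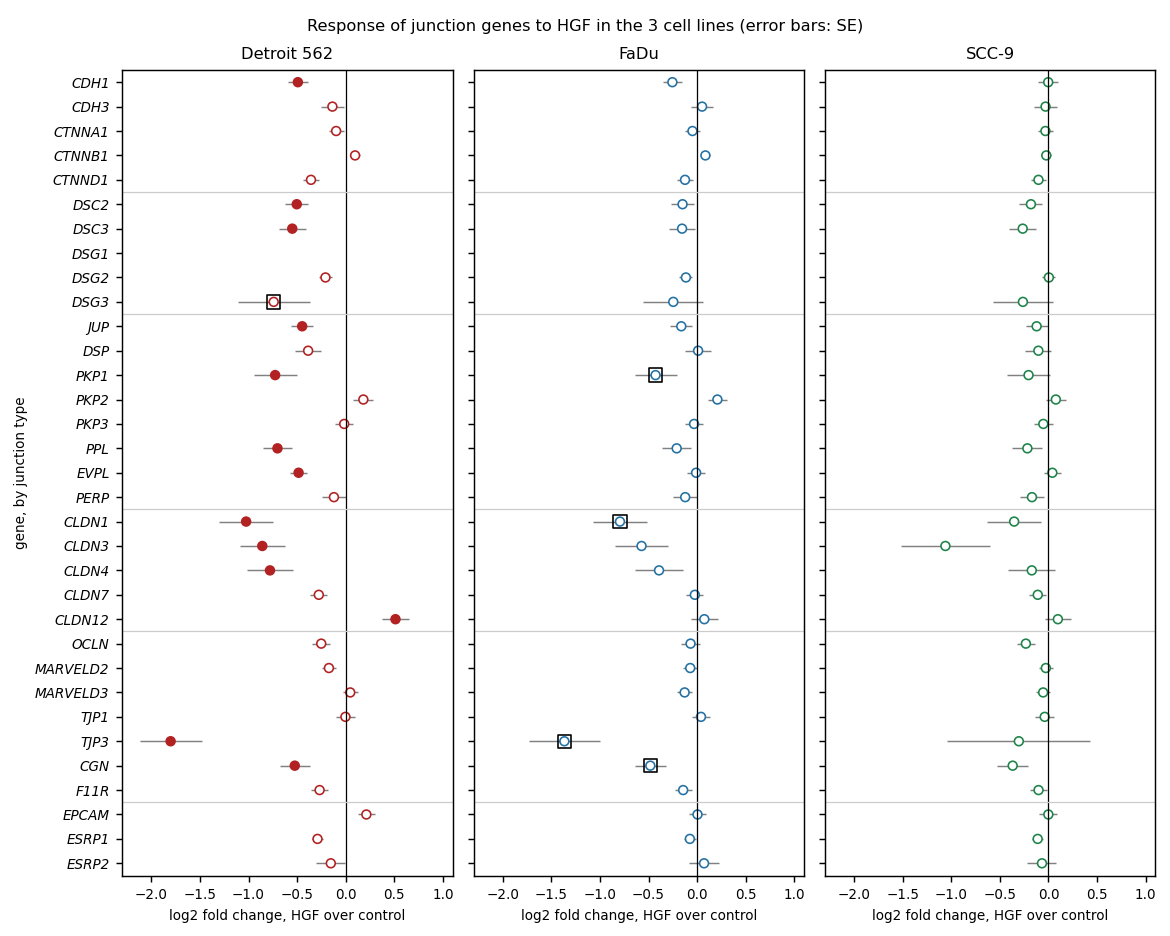
log2 fold change of HGF over control with its SE for 32 junction genes in Detroit 562, FaDu and SCC-9, from edgeR without a replicate term; grey lines part the junction types. Filled circles were called, and black squares mark genes called only with the replicate number as a block. Filled circles stand in Detroit 562 only (12 lower, 1 higher), and squares in Detroit 562 (DSG3) and FaDu (4 genes); DSG1 is not drawn.

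TJP3 had the largest fold change of the junction genes in Detroit 562. Against the 60.0, 55.1 and 36.2 CPM of the control libraries 1, 2 and 3, the HGF libraries held 18.2, 17.1 and 8.00 CPM. The groups did not overlap, library 3 was the lowest of both, and the log2 fold change was -1.80 ± 0.32 (SE, adjusted p = 0.00177). CLDN1 measured 133, 119 and 74.8 CPM in control and 59.0, 62.7 and 38.7 CPM with HGF (-1.03 ± 0.28, adjusted p = 0.015). Again library 3 was the lowest on both sides, and its control value was above all HGF values.

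CLDN3 and CLDN4, both paracellular barrier claudins, both fell. CLDN4 measured 204, 173 and 135 CPM in control and 114, 101 and 83.8 CPM with HGF (-0.78 ± 0.24, adjusted p = 0.0273). CLDN3 measured 3.18, 3.31 and 2.37 CPM in control and 1.83, 1.70 and 1.34 CPM with HGF (-0.86 ± 0.23, adjusted p = 0.0139). Neither gene's groups overlapped. The CLDN4 call was lost without control library 1 (-0.63, adjusted p = 0.136) or HGF library 3 (-0.67, adjusted p = 0.107). CGN fell from 60.4, 54.6 and 48.8 CPM to 39.4, 41.0 and 33.4 CPM (-0.52 ± 0.15, adjusted p = 0.02), and its call was lost without control library 1 (-0.45, adjusted p = 0.103).

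The remaining tight junction genes changed less or were not called. CLDN7 (-0.28), OCLN (-0.25), MARVELD2 (-0.17) and F11R (-0.27) had adjusted p below 0.1 but stayed under the minimum fold change. TJP1 and MARVELD3 had log2 fold changes of -0.00 and 0.05 and neither passed. CLDN12, a claudin without the usual link to ZO proteins, was the only junction gene called higher, at 70.8, 70.8 and 96.9 CPM in control and 95.7, 99.6 and 145 CPM with HGF (0.51 ± 0.14, adjusted p = 0.0132). Its groups overlapped, and the call was lost without HGF library 3 (0.30, adjusted p = 0.0766). Reads in its overlap with GTPBP10 and CDK14 were counted for each gene. Those genes had log2 fold changes of 0.41 and 0.45 in the same comparison.

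Among the desmosomal cadherins, both desmocollins fell. DSC3 measured 90.2, 83.7 and 63.7 CPM in control and 52.7, 56.5 and 53.0 CPM with HGF (-0.55 ± 0.14, adjusted p = 0.00978), and DSC2 measured 60.9, 53.5 and 50.1 CPM against 37.3, 38.4 and 40.4 CPM (-0.50 ± 0.12, adjusted p = 0.0074). The groups did not overlap in either gene, and the HGF libraries lay within a narrow band. DSG3 had the wider replicate spread, with 9.78, 7.58 and 3.07 CPM in control and 5.34, 4.77 and 2.04 CPM with HGF. Every HGF library was below its control of the same number while the groups overlapped, and the log2 fold change of -0.74 ± 0.37 was not called (adjusted p = 0.154). In the blocked fit it was called, at -0.74 (adjusted p = 7.28e-05), and without control library 3 it was called in the fit without a block at -1.09 (adjusted p = 0.0191). DSG2, the desmoglein of all desmosome-bearing epithelia, had -0.21 (adjusted p = 0.0301), under the minimum fold change.

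In the desmosomal plaque the plakins PPL and EVPL, plakoglobin and PKP1 fell. PPL measured 393, 361 and 297 CPM in control and 225, 242 and 179 CPM with HGF (-0.70 ± 0.15, adjusted p = 0.0047). EVPL measured 122, 114 and 110 CPM against 87.9, 84.7 and 74.1 CPM (-0.49 ± 0.09, adjusted p = 0.00233). For both plakins the 2 groups were apart. JUP went from 420, 392 and 375 CPM to 311, 291 and 267 CPM (-0.45 ± 0.11, adjusted p = 0.0104), and without HGF library 3 its fold change of -0.39 was under the minimum. PKP1 measured 70.8, 59.2 and 37.8 CPM in control and 37.3, 35.0 and 29.1 CPM with HGF (-0.73 ± 0.22, adjusted p = 0.0259). Its control library 3 was close to the HGF values, and the call was lost without control library 1 (-0.52, adjusted p = 0.157) or HGF library 3 (-0.63, adjusted p = 0.101). DSP had -0.39 (adjusted p = 0.0436), just under the minimum, and was called without control library 2 (-0.45), control library 3 (-0.41) or HGF library 3 (-0.43). PKP2 (0.18), PKP3 (-0.02) and PERP (-0.12) did not pass.

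CDH1 was the only adherens junction gene called. It measured 333, 307 and 266 CPM in the control libraries and 211, 221 and 213 CPM with HGF, with no overlap (-0.49 ± 0.10, adjusted p = 0.00364). CDH3 did not pass, at -0.14 (adjusted p = 0.406), and neither did CTNNA1 (-0.10) or CTNNB1 (0.10). CTNND1 had -0.36 (adjusted p = 0.00541), under the minimum, and was called without control library 3 (-0.43). Its extent overlaps the readthrough gene TMX2-CTNND1 on the same strand, so its counts are uncertain. EPCAM, at 429, 416 and 433 CPM in control and 483, 483 and 513 CPM with HGF, had 0.21 (adjusted p = 0.0968) without overlap of the groups. ESRP1 had -0.29 (adjusted p = 0.00361) and ESRP2 -0.15 (adjusted p = 0.479).

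**Figure D3:**
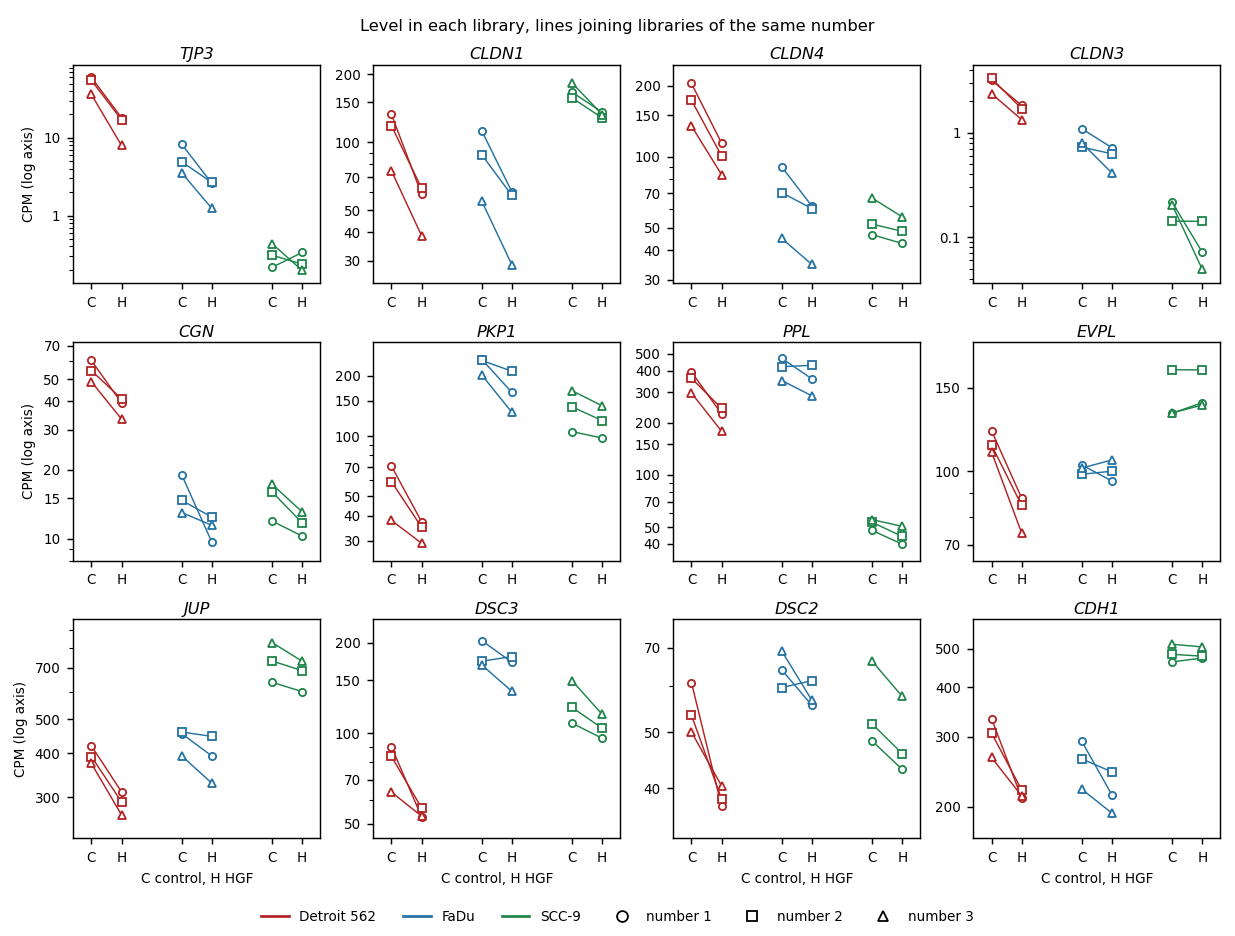
CPM (log axis, own scale in each panel) of the 12 junction genes called lower in Detroit 562, in every library of the 3 lines. C is control and H is HGF, symbols give the library number, and lines join libraries of the same number. The Detroit 562 lines fall in all 12 panels, and library 3 of Detroit 562 starts lowest in all of them, whereas many FaDu and SCC-9 lines are nearly flat.

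In FaDu, 0 junction genes were called by edgeR without a replicate term, where 0.0258% of all genes tested were called, 4 in all. At an unadjusted p below 0.05 there were 5 of the 33, beside 1247 of the 15475 genes tested, and DESeq2 called 0 (0.388% of all genes). Same-numbered libraries varied together, and with the number as a block 4 junction genes were called lower and 0 higher, where 3.6% and 2% of all genes were. TJP3 measured 8.29, 4.92 and 3.54 CPM in control and 2.60, 2.67 and 1.23 CPM with HGF, without overlap. Its log2 fold change was -1.37 ± 0.36 (adjusted p = 0.429) without and -1.36 (adjusted p = 1.55e-04) with the block, and without control library 3 it was called in the fit without a block (-1.61, adjusted p = 0.0993). CLDN1 measured 112, 88.0 and 54.9 CPM against 60.4, 58.2 and 28.7 CPM. The groups overlapped, but each HGF library was below its control. The values were -0.79 ± 0.28 (adjusted p = 0.537) without and -0.81 (adjusted p = 2.3e-05) with the block.

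CGN and PKP1 were the other FaDu genes called with the block. CGN measured 19.0, 14.7 and 13.0 CPM in control and 9.65, 12.4 and 11.4 CPM with HGF (-0.48, adjusted p = 0.519 without and -0.47, adjusted p = 0.0179 with the block). The 2 groups did not overlap. PKP1 measured 242, 239 and 202 CPM against 165, 211 and 131 CPM (-0.43, adjusted p = 0.628 without and -0.45, adjusted p = 0.00351 with the block), with overlap at the second HGF library. Neither call was stable when the libraries of 1 number were left out of the blocked fit: CGN was lost without number 1 (-0.21, adjusted p = 0.177), and PKP1 without number 1 (-0.40, just under the minimum) or number 3 (-0.35). TJP3 and CLDN1 were called in all 3 of these fits. CLDN4 had -0.38 with the block (adjusted p = 9.82e-04), just under the minimum fold change, and was called without number 2 (-0.46). CLDN3 had -0.57 (adjusted p = 0.618 without and 0.131 with the block). CDH1 had -0.25 and was below its control in every pair, under the minimum in both fits. EVPL (-0.01), DSP (0.01) and EPCAM (0.00) lay near 0. The median over the 33 genes was -0.12, beside -0.00 over all genes tested. In FaDu 16 genes were lower in 3 of 3 pairs (23.3% of all genes tested) and 4 higher (20%). Groups did not overlap in 5 genes lower with HGF (5.36%) and in 0 higher (4.05%). The 5 include DSG1, at the low counts given above, and CLDN3, at 0.411 to 1.09 CPM. The fibroblast markers summed to 4.04 to 6.84 CPM in control and 3.41 to 4.78 CPM with HGF, the leukocyte and endothelial ones to 20.3 to 31.4 and 30.9 to 37.1 CPM, and the squamous ones to 6706 to 10534 and 4211 to 9081 CPM. With the block COL1A1, CDH5 and KRT5 were called lower and CD68 higher, and their part in the result was not tested.

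In SCC-9, 0 of the 33 genes were called by edgeR without a replicate term, where 0% of all genes tested were called. An unadjusted p below 0.05 was found for 3 of the 33, beside 641 of the 15475 genes tested. DESeq2 called 0 as well (0.12% of all genes), and so did the fit with the replicate block, in which 1.97% of all genes were called. CLDN1 measured 167, 157 and 183 CPM in control and 136, 128 and 133 CPM with HGF, without overlap. With the block its log2 fold change of -0.35 had an adjusted p of 0.008 and stayed under the minimum, and without it the adjusted p was 1. OCLN had -0.23 in both fits (adjusted p = 0.0828 with the block), and CGN had -0.37 and -0.36 (adjusted p = 0.122 with the block). CLDN3 had -1.06 from levels of at most 0.215 CPM per library, and TJP3 had -0.31 ± 0.73 from at most 0.433 CPM, so changes of these genes were not detectable at this depth. CDH1 was within its spread, at 463, 484 and 513 CPM in control and 473, 479 and 505 CPM with HGF (-0.00 on the log2 scale, adjusted p = 1). The median of the 33 was -0.10, beside 0.00 over all genes tested. In SCC-9 21 genes were lower in 3 of 3 pairs (24.6% of all genes tested) and 2 higher (23.9%). Groups did not overlap in 4 genes lower with HGF (9.12%) and 0 higher (8.3%). The 4 include CLDN3, at the low level just given, and F11R, whose counts are uncertain because another gene overlaps it. The marker sums were 77.6 to 99.4 and 60.4 to 81.3 CPM (fibroblast), 55.3 to 56.1 and 58.2 to 58.3 CPM (leukocyte and endothelial) and 7098 to 9191 and 7153 to 8741 CPM (squamous) in control and HGF libraries, and none of these markers was called there in either fit.

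Over the 9 pairs of the 3 lines, 11 of the 33 genes were lower with HGF in every pair, as were 8.42% of all genes tested. These were CGN, CLDN1, CLDN3, CLDN4, CTNND1, DSG3, ESRP1, F11R, JUP, PERP and PKP1. For CLDN3 the SCC-9 libraries held at most 0.215 CPM, too little to read a direction there. The list was read from the same libraries and carries no test.

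Whether the response differed between the lines was tested as an interaction of line and treatment, passed at an adjusted p below 0.1 without a minimum fold change. Without a replicate term, 0 junction genes passed for Detroit 562 against FaDu (0.239% of all genes tested), 1 for Detroit 562 against SCC-9 (0.924%) and 0 for FaDu against SCC-9 (0%). At an unadjusted p below 0.05 there were 4, 7 and 0 of the 33, beside 1788, 2378 and 337 of the 15475 genes tested. DESeq2 passed 1 (1.79% of all genes), 2 (4.56%) and 0 (0.0154%). The 1 gene was EVPL, whose response in Detroit 562 was 0.53 lower than in SCC-9 on the log2 scale (-0.53 ± 0.13, adjusted p = 0.0991). EVPL in SCC-9 was 133, 164 and 133 CPM in control and 140, 164 and 138 CPM with HGF, and in FaDu 103, 98.6 and 102 CPM against 95.4, 100.1 and 106 CPM. The groups of both lines overlapped. Without control library 3 of Detroit 562, EVPL also passed against FaDu (-0.51, adjusted p = 0.0887), and CDH1 (-0.57, adjusted p = 0.0398) and CLDN12 (0.58, adjusted p = 0.0764) passed against SCC-9. EVPL itself missed the threshold against SCC-9 in 15 of the 18 fits that left out a library.

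With the replicate number as a block, 12 junction genes had a lower and 2 a higher response in Detroit 562 than in FaDu, where 8.98% and 10.1% of all genes passed in those directions. Against SCC-9 it was 14 lower (13.2%) and 2 higher (13.8%). The 2 comparisons share the Detroit 562 libraries. EVPL differed by -0.48 (adjusted p = 5.67e-04) from FaDu and -0.53 (adjusted p = 1.33e-04) from SCC-9. PPL differed by -0.49 (adjusted p = 0.00489) and -0.48 (adjusted p = 0.004), and CLDN4 by -0.39 (adjusted p = 0.00842) and -0.61 (adjusted p = 2.96e-04). JUP differed by -0.28 (adjusted p = 0.0143) and -0.33 (adjusted p = 0.0034). CLDN12 and EPCAM were the higher ones, by 0.43 and 0.21 against FaDu and 0.41 and 0.21 against SCC-9.

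CDH1 differed from SCC-9 by -0.49 with the block (adjusted p = 0.00242) and from FaDu by -0.24 (adjusted p = 0.109), which did not pass. CLDN1 differed from SCC-9 by -0.67 (adjusted p = 3.3e-04) but not detectably from FaDu (-0.21, adjusted p = 0.165). TJP3, the gene with the largest fold change in both Detroit 562 and FaDu, did not pass between them (-0.48 ± 0.20, adjusted p = 0.143), and passed against SCC-9 (-1.54, adjusted p = 0.0422) at the low SCC-9 level given above. CGN passed in neither comparison (-0.05 and -0.16). Between FaDu and SCC-9, CLDN1 alone of the 33 passed with the block (-0.46, adjusted p = 0.0357, where 1.32% of all genes passed), but not without number 1 (adjusted p = 0.299). When the libraries of 1 number were left out of the blocked fit, 3 to 15 genes passed for Detroit 562 against FaDu, the lowest without number 2, and 10 to 17 against SCC-9, the lowest without number 1 or 2. EVPL, PPL and CLDN12 passed in all 3 of these fits in both comparisons, and CDH1, JUP, CLDN1 and CLDN4 in all 3 against SCC-9.

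**Figure D4:**
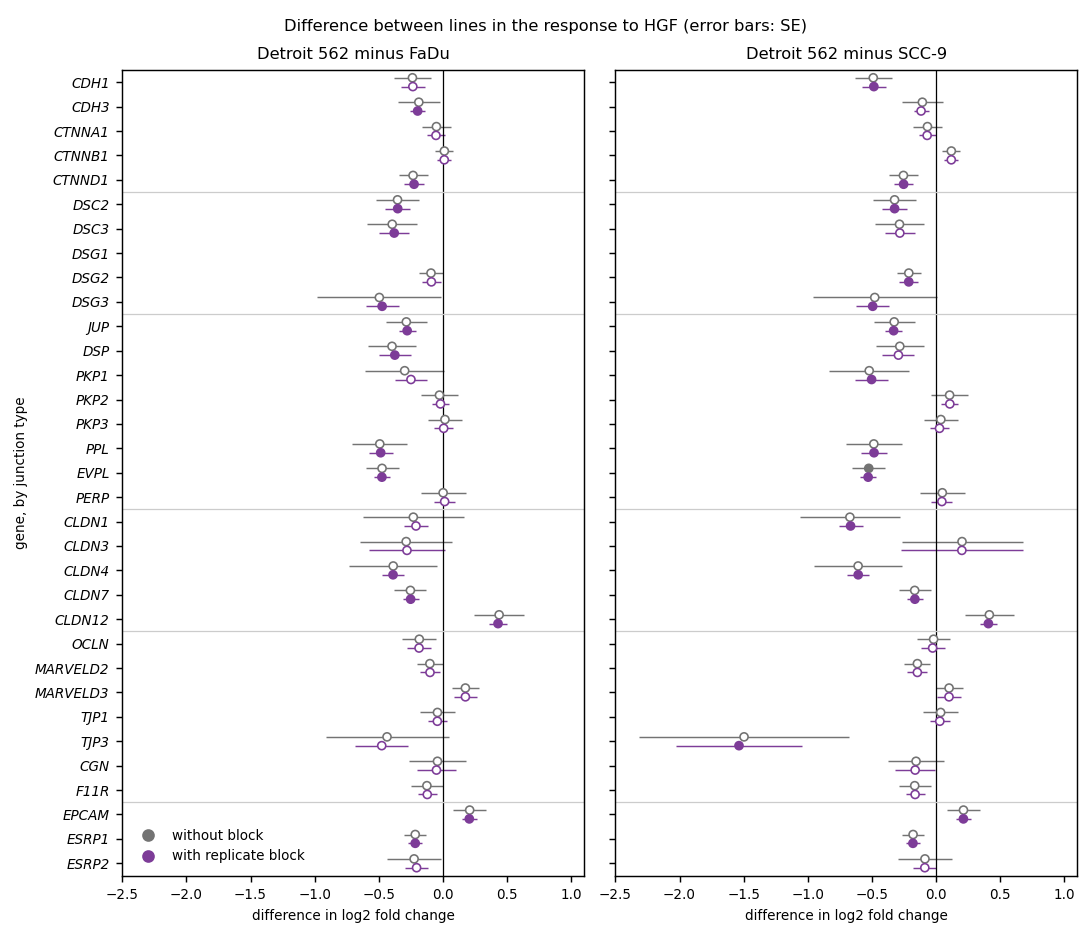
Difference in the log2 fold change to HGF between Detroit 562 and FaDu (left) or SCC-9 (right) with its SE for 32 junction genes; grey shows the fit without a replicate term and purple the fit with the replicate block. Filled circles passed at an adjusted p below 0.1: 0 and 1 in grey, 14 and 16 in purple. The estimates of the 2 fits lie close together, while the error bars of the blocked fit are shorter for most genes; DSG1 is not drawn.

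Related genes were counted in the same fits, without a replicate term unless stated. In Detroit 562, where 11.7% of all genes tested were called lower and 6.16% higher, 2 of the 8 other claudins tested were called lower, CLDN8 (-2.59) and CLDN16 (-1.87). Of 18 other tight junction and polarity genes 2 were called lower, ILDR1, a protein of tricellular contacts (-1.05), and CXADR, a junctional virus receptor (-0.47), and 0 higher. Of 12 other adherens junction genes, NECTIN4, a nectin that adheres between cells, was called lower (-1.38) and CTNNAL1, an α-catenin relative, higher (0.69), and with the block the mesenchymal cadherin CDH11 was higher as well (2.00). Neither of the 2 other desmosomal genes tested was called. Of 9 transcription factors that maintain epithelial gene expression 4 were called lower (11.7% of all genes), among them GRHL3 (-1.66), ELF3 (-1.41) and GRHL1 (-0.73). Of 6 repressors of junction genes 3 were called higher (6.16% of all genes), TWIST2 (0.82), TWIST1 (0.61) and SNAI2 (0.56), whereas SNAI1 (0.42, adjusted p = 0.436), ZEB1 (0.15, adjusted p = 0.291) and ZEB2 (0.47, adjusted p = 0.648) were not.

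None of these related genes was called in FaDu or SCC-9 without the block. With the block, where 3.6% of all genes were called lower and 2% higher, FaDu had ELF3 (-0.64), GRHL3 (-1.13), NECTIN4 (-0.55) and ILDR1 (-0.49) called lower and CDH11 (1.66), CTNNAL1 (0.61) and CGNL1, a cingulin relative (0.65), called higher. In SCC-9, ELF3 (-0.79), OVOL1 (-0.67) and NECTIN4 (-0.49) were called lower with the block (1.97% of all genes were called in either direction). The 6 repressors were called in neither line in either fit.

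The promoter windows of the junction genes were searched on both strands for sequence patterns of GRHL factors, of repressors on the list and of AP-1, which is on none of the lists. RefSeq windows (build GRCh38.p14, 250 bases before to 50 after a start) were at hand for 21 of the 33 genes, 32 windows in all. The genes without a window were CDH1, CDH3, CTNND1, EPCAM, ESRP1, ESRP2, EVPL, F11R, MARVELD3, PKP2, PKP3 and PPL. CACCTG, the E-box bound by SNAI and ZEB factors, which reads CAGGTG on the other strand, stood in 11 of the 32 windows and in 20.6% of all 35116 windows. AACCNGTT, bound by GRHL factors, stood in 1 and 1.73%. TGANTCA, with any base at N, was taken as a loose pattern for AP-1 and stood in 2 and 7.71%. In CLDN4 it read TGATTCA and TGACTCA. The windows of 5 genes called lower are shown because they differ in these matches, given in capitals as they read on the gene's strand. Matches of different motifs did not share letters in them. A match describes the letters only, and binding was not measured. TJP3 (chr19:3721487-3721786, plus strand) and JUP (chr17:41785927-41786226, minus strand) held the E-box, CLDN4 (chr7:73830746-73831045, plus strand) the AP-1 sequence, CGN (chr1:151511137-151511436, plus strand) the GRHL sequence, and CLDN1 (chr3:190322397-190322696, minus strand) none of the 3. For TJP3 and JUP the window with a match was chosen. Their other windows (chr19:3708134-3708433 and chr17:41786662-41786961) held none of the 3 sequences and are not shown.
TJP3: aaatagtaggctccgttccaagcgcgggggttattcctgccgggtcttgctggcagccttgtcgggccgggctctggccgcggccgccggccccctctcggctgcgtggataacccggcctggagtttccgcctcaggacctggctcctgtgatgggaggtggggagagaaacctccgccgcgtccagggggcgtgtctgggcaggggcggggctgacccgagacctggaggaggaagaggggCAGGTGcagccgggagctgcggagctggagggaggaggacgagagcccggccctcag
JUP: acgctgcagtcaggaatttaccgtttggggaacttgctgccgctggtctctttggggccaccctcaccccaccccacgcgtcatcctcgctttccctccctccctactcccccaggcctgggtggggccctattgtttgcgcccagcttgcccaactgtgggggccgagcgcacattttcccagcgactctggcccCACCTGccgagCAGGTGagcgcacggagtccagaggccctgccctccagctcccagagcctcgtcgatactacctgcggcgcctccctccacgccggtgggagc
CLDN4: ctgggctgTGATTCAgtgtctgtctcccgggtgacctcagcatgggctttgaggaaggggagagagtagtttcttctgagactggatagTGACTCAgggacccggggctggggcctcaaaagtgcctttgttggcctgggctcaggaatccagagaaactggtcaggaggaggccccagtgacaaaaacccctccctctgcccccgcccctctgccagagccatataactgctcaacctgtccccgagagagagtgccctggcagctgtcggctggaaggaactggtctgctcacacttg
CGN: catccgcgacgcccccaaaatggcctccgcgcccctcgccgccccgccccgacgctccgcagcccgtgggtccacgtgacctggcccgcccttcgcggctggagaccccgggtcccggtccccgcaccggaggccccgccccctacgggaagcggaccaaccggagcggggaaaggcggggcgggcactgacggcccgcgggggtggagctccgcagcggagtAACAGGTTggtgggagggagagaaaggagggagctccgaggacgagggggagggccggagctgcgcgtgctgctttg
CLDN1: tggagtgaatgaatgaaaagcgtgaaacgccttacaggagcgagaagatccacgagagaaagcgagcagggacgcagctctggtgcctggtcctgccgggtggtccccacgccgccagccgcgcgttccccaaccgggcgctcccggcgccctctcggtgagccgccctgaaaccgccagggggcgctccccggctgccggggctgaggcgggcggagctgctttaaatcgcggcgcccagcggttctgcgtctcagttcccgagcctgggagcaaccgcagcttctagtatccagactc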

How the data were processed

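Total RNA of the 18 libraries was poly(A)-selected and sequenced strand-specifically (TruSeq stranded mRNA). Per the submitters' processing notes and the methods, the authors used bcl2fastq 2.20.0.422, cutadapt 1.16, STAR 2.5.2b on build GRCh38.p12, bedtools and DESeq2 1.22.1. The deposited file holds raw counts per gene; bedtools counted stranded overlaps with whole gene extents, so intronic reads and reads shared by overlapping genes on a strand are included. The 33 junction genes and all other lists were chosen with earlier results of these data known.

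From the counts, edgeR 4.0.16 in R 4.3.3 (filterByExpr, TMM, quasi-likelihood test, 1 mean per line and treatment, Benjamini-Hochberg adjustment over 15475 genes) gave log2 fold changes. Thresholds were an adjusted p below 0.1 and, within lines and between untreated lines, a log2 fold change of at least 0.4. RPKM used the union of exons of GENCODE, matched by gene ID, and so divides counts that include introns by exon length. As a check of single values, an exact 2-sided permutation test of 3 against 3 libraries cannot go below p = 0.1, which 23 of the 33 genes reached for Detroit 562, 5 for FaDu and 4 for SCC-9. These are the genes whose groups did not overlap, and the shares of all genes without overlap are given above for each line.

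Pairing by library number was read from the data, since the labels do not give it. Across genes, deviations from the group mean of control and HGF libraries with 1 number correlated at 0.445 to 0.738 in the 9 pairs. Differently numbered ones correlated at -0.673 to 0.382, partly because deviations in a group of 3 sum to 0. In Detroit 562, numbers 1 and 2 were hardly told apart: control 1 correlated at 0.473 with HGF 1 and 0.382 with HGF 2. The blocked fit rests on this pairing and is given beside results that it changes. Alternatives were DESeq2 1.42.0 with and without a fold change prior, DESeq2 size factors, no filter, at least 50 counts in 3 libraries, a fit of 1 line, and leaving out each library. The procedure was also run on simulated data whose changes were larger than the minimum fold change. The outcome is not given here, and it would not speak to changes near that minimum. All members were reported; of other lists, at most the 3 called genes with the largest change per line and the repressors were named, and 1 gene of these lists is not reported here.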

Additional observations from a re-analysis of the deposited data

Results flagged for a closer look

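The response of EVPL to HGF differed between Detroit 562 and SCC-9 by -0.53 on the log2 scale in the interaction test of edgeR without a replicate term (adjusted p = 0.0991). All 3 HGF libraries were below their controls in Detroit 562, where the log2 fold change was -0.49, and it was 0.04 in SCC-9. When each of the 18 libraries was left out in turn, the difference stayed between -0.44 and -0.63 and missed the threshold in 15 of the 18 fits.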

How the results depend on the processing

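In Detroit 562 the count of 13 called junction genes was 13 or 14 under the DESeq2, size factor, filter, 1-line and blocked alternatives and 10 to 16 when a library was left out. With the replicate block, FaDu had 4 called genes in place of 0, also in a blocked fit of its 6 libraries alone, and SCC-9 had 0. The interaction counts under the block were 14 in place of 0 (Detroit 562 against FaDu), 16 in place of 1 (Detroit 562 against SCC-9) and 1 in place of 0 (FaDu against SCC-9). DESeq2 without prior gave 1 and 2 for the first and second, and no filter on low counts gave 0 for the second. Leaving out 1 library gave 0 to 1 calls in FaDu and 0 in SCC-9, and interaction counts of 0 to 1, 0 to 3 and 0. It gave 20 to 21, 20 to 23 and 17 to 19 for Detroit 562 against FaDu, Detroit 562 against SCC-9 and FaDu against SCC-9 untreated. The other alternatives moved the untreated counts by less than 1.5 times, and the block changed no call among them. Leaving out the libraries of 1 number from the blocked fit, and the blocked fit of 1 line, were chosen after seeing the data. The former gave 2 (without number 1), 5 (without number 2) and 3 (without number 3) in FaDu, 1 in SCC-9 without number 1, interaction counts of 12, 3 and 15, then 10, 10 and 17, and 1 for FaDu against SCC-9 without number 2 or 3. No gene called in any of these fits changed its direction. The cause of these changes was not tested. With 3 libraries a group, differences under the log2 minimum of 0.4 were not called whatever their p, and levels of DSG1, and of CLDN3 and TJP3 in SCC-9, were too low to compare between treatments.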

Other observations

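In each line the libraries of 1 number were the lowest of their group for many junction genes. In Detroit 562, library 3 was the lowest of both the control and the HGF libraries for 15 of the 33 genes, in FaDu for 14 and in SCC-9 for 0. In SCC-9 it was library 1, for 16 of the 33 genes. Same-numbered libraries varied together across all genes too. The share of all genes with such a lowest library was not counted, so these counts say nothing particular about junction genes. The median ratio of the highest to the lowest control library over the 33 genes was 1.18 for Detroit 562, 1.19 for FaDu and 1.16 for SCC-9. It exceeded 1.5 for 6, 3 and 5 genes. DSG3 in Detroit 562 reached 3.19, CLDN1 in FaDu 2.05 and TJP3 in FaDu 2.34.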
